A study of Mus musculus with 6 samples.

Results

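Sox10, Mitf, Mcam, S100b, Erbb3, Pmel, Mlana, Tyrp1 and Dct are genes of melanocytes and of the neural crest, the embryonic cell population from which melanocytes and Schwann cells arise. They were read out as 9 rows of a table of 54532 gene IDs measured in cells sorted from mouse melanomas. The members were chosen by symbol, with earlier results of these data known, and each symbol matched 1 ID. The sorted cells were selected by flow cytometry on CD11c, an integrin of dendritic cells and other myeloid cells, and the labels call them dendritic cells. RNA from tumour cells would be foreign to that gate, so the members are given library by library.

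The tumours came from a mouse melanoma line with the BRAFV600E mutation, implanted in Matrigel into C57BL/6 mice and harvested on day 28. In the Gli2CA group (3 libraries) the implanted cells carried an active mutant of Gli2, a transcription factor of the Hedgehog pathway. In the NTC group (3 libraries) they carried a non-targeting control. All implanted cells shared that line's background and had been grown with puromycin. The labels do not give the promoter behind the mutant, whether a line was 1 clone, the age or sex of the mice, or whether each library came from its own mouse. The p-values therefore measure the spread between these libraries, which may be technical.

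Sox10 is a transcription factor of the neural crest that keeps glial and melanocytic cells in their lineage and activates Mitf. Mitf encodes the master transcription factor of melanocytes, which binds E-box sequences in front of the pigment genes. Among these are Pmel and Mlana, which encode structural proteins of the melanosome, and Tyrp1 and Dct, which encode enzymes of melanin synthesis. Mcam encodes CD146, an adhesion molecule of melanoma cells that is also made by endothelial and mural cells of vessels. Erbb3 encodes a receptor for neuregulins, and S100b a calcium-binding protein used as a marker of Schwann cells and melanoma.

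The values are FPKM, fragments scaled to transcript length and to library size. They were whole multiples of 1 read once each gene's mean transcript length was known, so reads could be recovered for every member. Libraries held about 18780000 to 27880000 fragments in NTC and 25490000 to 29130000 in Gli2CA. They also differed in how many genes they detected. Among the 7423 genes with a mean of 1 to 20 FPKM over the 6 libraries, the range in which all tested members lay, 51.1% were under 0.1 FPKM in NTC 1 and 43.4% in NTC 3. The same share was 14.2% in NTC 2 and 9.59%, 15.3% and 14.7% in Gli2CA 1, 2 and 3. A value of 0 in NTC 1 or NTC 3 is therefore common for genes of this level, and NTC 2 is the control library whose detection was like that of the Gli2CA libraries. Values of NTC 2 are given beside the levels of each member for that reason. The sorted population carried CD11c+ cell genes in all 6 libraries. All 8 genes of that list had reads in each library, with 2 higher and 6 lower means in Gli2CA. These became 3 and 5 after quantile normalization as Cd74 changed sign, and none passed the test described below. The 2 higher were Ptprc and Itgax, the gene of CD11c itself, named here for their direction. Itgax stood at 145, 224 and 118 FPKM in Gli2CA 1, 2 and 3 and at 115, 117 and 62.4 in NTC 1, 2 and 3, without overlap. Ptprc had a mean of 307 FPKM in Gli2CA libraries and 232 in NTC libraries. The invariant chain gene Cd74 had a mean of 18407 FPKM (SD 2070, n = 3) in Gli2CA libraries and 23547 (SD 2546, n = 3) in NTC libraries. H2-Ab1, which encodes a class II chain, ranged from 26996 to 42699 FPKM and the lectin gene Cd209a from 773 to 1460 over the 6 libraries. Xcr1, a chemokine receptor gene of cDC1 cells, had the lowest p of that list and is named here for its values. It stood at 33.2, 51.4 and 33.3 FPKM in NTC 1, 2 and 3 and at 5.45, 7.02 and 11.5 in Gli2CA 1, 2 and 3, lower in Gli2CA without overlap (log2 difference -2.19 ± 0.57 SE, limma adjusted p = 0.226). Its part in the results below was not tested.

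**Figure D1:**
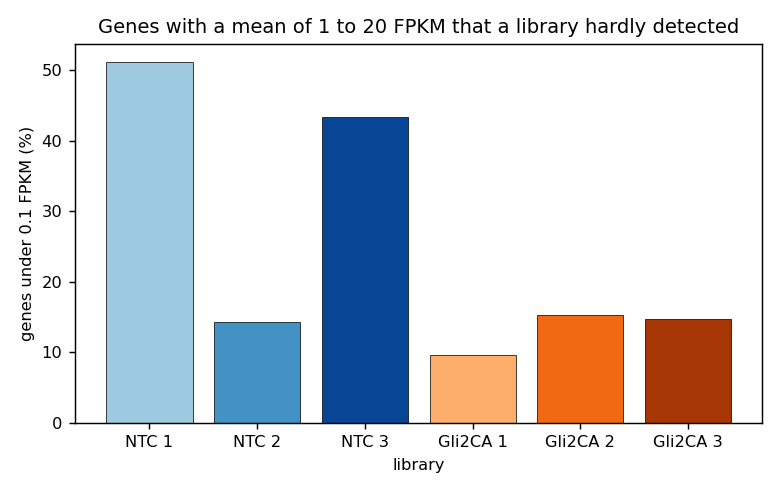
Bars show, for each library, the percentage of the 7423 genes with a mean of 1 to 20 FPKM over the 6 libraries that lay under 0.1 FPKM in that library. NTC 1 and NTC 3 stand at 51.1% and 43.4%, and the other 4 libraries lie between 9.59% and 15.3%.

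Sox10 was read in every Gli2CA library and in no NTC library. The gene lies at chr15:79154908-79165240 (GRCm38, minus strand). It stood at 19.8, 12.1 and 18.4 FPKM in Gli2CA 1, 2 and 3, from 1058, 588 and 860 reads, and was listed at 0 in NTC 1, 2 and 3. The groups did not overlap, and the 3 Gli2CA values lay close together. A count of 3 reads, the limit that a count of 0 allows, would have been 0.0871, 0.0587 and 0.0706 FPKM in NTC 1, 2 and 3. Against that limit taken per library, the Gli2CA mean was at least 232-fold higher, a bound that covers counting error only. The difference of Gli2CA minus NTC was 4.12 ± 0.75 (SE) in log2(FPKM + 1), a scale on which changes of low genes come out too small. It did not pass limma's moderated test (adjusted p = 0.188 with Benjamini-Hochberg adjustment over 12266 genes), with all 3 Gli2CA libraries above all 3 NTC libraries. In limma's order by unadjusted p, Sox10 ranked 33 of the 12266 genes.

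No gene at all passed that test, 0 of 12266 or 0%, and limma's voom on the recovered reads also called 0, so the test separates no member from the rest. An unadjusted p under 0.05 was reached by 1304 genes, 10.6% of those tested, of which 959, or 7.82% of those tested, had the higher mean in Gli2CA. That number of 1304 was 2450 without NTC 2 and 817 without Gli2CA 1. Sox10 and Mcam are among these 959. The pattern of Sox10, 0 in all NTC libraries and at least 1 FPKM in all Gli2CA libraries, was found in 106 genes, Sox10 included, 0.864% of those tested. The opposite pattern was found in 0 genes, 0%, where the low detection of NTC 1 and NTC 3 limits how many could show it. Among genes with 0 reads in NTC 2 alone and at least 1 FPKM in all Gli2CA libraries there were 214, 1.74%. At a minimum of 10 FPKM in all Gli2CA libraries, 7 genes remained, 0.0571%. They were Sox10, Anxa8, Id1, Layn, Tnnt2, 3830403N18Rik and a processed pseudogene, Gm14039, and apart from Sox10 they are named here because of these values. Anxa8 encodes an annexin, Id1 an inhibitor of helix-loop-helix transcription factors, Layn a hyaluronan receptor and Tnnt2 the cardiac form of troponin T.

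**Figure D2:**
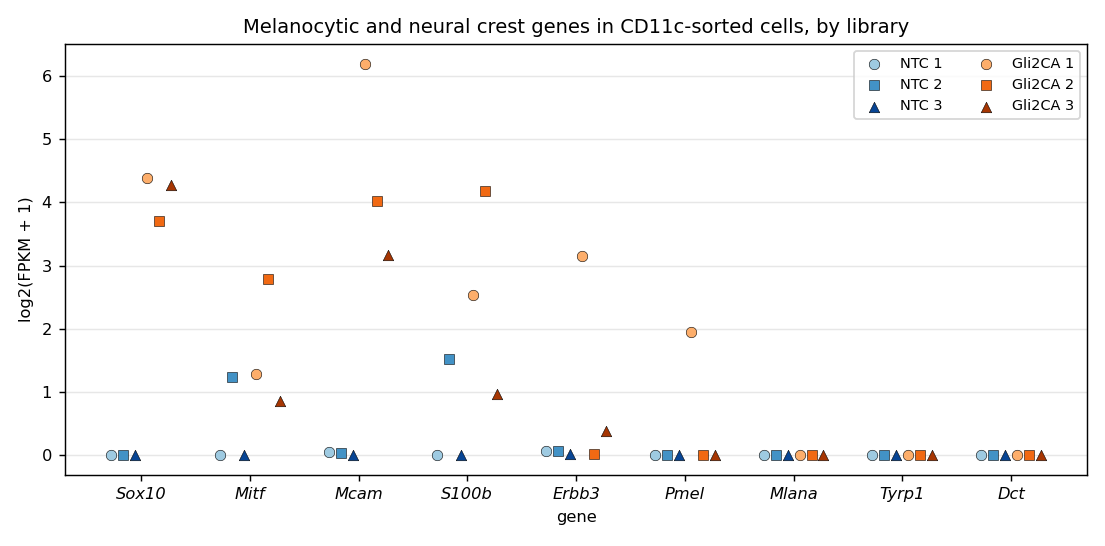
Each point is 1 library's level of 1 gene, as log2(FPKM + 1), for the 9 genes, with NTC libraries in blue and Gli2CA libraries in orange. For Sox10 and Mcam all 3 Gli2CA points lie above all 3 NTC points, for Mitf and S100b NTC 2 lies among the Gli2CA points, and Mlana, Tyrp1 and Dct are at 0 throughout.

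Mitf was read in all Gli2CA libraries and also in NTC 2, so its groups overlapped. The gene lies at chr6:97807052-98021349 (plus strand). It stood at 1.43, 5.93 and 0.817 FPKM in Gli2CA 1, 2 and 3 and at 0, 1.34 and 0 FPKM in NTC 1, 2 and 3. NTC 2, with 81 reads, lay beside Gli2CA 1, with 90, and above Gli2CA 3, with 45. The log2 difference was 1.24 ± 0.79 (SE, limma adjusted p = 0.599), and 0.42 when NTC 1 and NTC 3 were left out, an alternative added once their detection was known. Without Gli2CA 2, the library with the most Mitf, it was 0.66. The MiT/TFE family also holds Tfeb, Tfe3 and Tfec, whose proteins bind like MITF and act on lysosomal genes. Tfeb had a mean of 43.5 ± 3.34 FPKM in the Gli2CA libraries and 94.2 ± 55.6 in the NTC libraries (SD, n = 3 each), and Tfe3 had 32.5 ± 1.33 and 21.7 ± 1.67. Tfec had 10.2 FPKM in Gli2CA 2, 0.0222 in NTC 2 and 0 in the other 4 libraries. None of the 3 passed (limma adjusted p of 0.537 to 0.68).

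Of the pigment genes, Pmel alone gave reads, and in 1 library. Mlana (chr19:29697824-29708634, plus strand), Tyrp1 (chr4:80834123-80851719, plus strand) and Dct (chr14:118012790-118052244, minus strand) were listed at 0 in all 6 libraries. For Tyrp1, 3 reads would have been 0.0595 to 0.068 FPKM in the Gli2CA libraries and 0.0622 in NTC 2, which is the limit that counting error alone sets. Pmel (chr10:128704195-128720238, plus strand) had 95 reads and 2.88 FPKM in Gli2CA 1 and was listed at 0 in the other 5 libraries. It overlaps Cdk2 and Dgka on the opposite strand, and whether the counting used strand is not given. Cdk2, a cell cycle kinase gene, had 16.4 FPKM in Gli2CA 1 and 15.3 and 21.1 in the other Gli2CA libraries, where Pmel was at 0. In NTC 1, 2 and 3, Cdk2 had 0.0943, 28.3 and 17.4 FPKM. Dgka had 21.7, 19.7 and 22.7 FPKM in Gli2CA 1, 2 and 3 and 11.5, 23.8 and 33.2 in NTC 1, 2 and 3. Tyrp1 and Dct are textbook targets of MITF, so the sequences in front of them are shown next, with those of Mitf and Mcam.

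The 250 bases upstream of the start of Tyrp1 and Dct and of the most downstream start of Mitf, which is that of the melanocytic isoform, were taken from RefSeq (GRCm38.p6) on the strand of the gene. The table held starts for 5 of the 9 members, among them 3 for Mitf. Capitals mark matches on either strand to CATGTG, the E-box that MITF binds, to ACAAAG, a core of SOX factor sites, or to TGACGTCA, the cAMP response element. The first 2 motifs were set from textbook knowledge, and the cAMP response element was added with the sequences in view.
Tyrp1, chr4:80833963-80834212: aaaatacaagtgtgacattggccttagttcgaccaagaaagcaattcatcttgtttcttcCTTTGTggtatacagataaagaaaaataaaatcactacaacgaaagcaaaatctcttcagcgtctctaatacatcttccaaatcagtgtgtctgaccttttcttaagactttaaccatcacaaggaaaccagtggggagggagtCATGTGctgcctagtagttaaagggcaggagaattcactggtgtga
Dct, chr14:118052247-118052496: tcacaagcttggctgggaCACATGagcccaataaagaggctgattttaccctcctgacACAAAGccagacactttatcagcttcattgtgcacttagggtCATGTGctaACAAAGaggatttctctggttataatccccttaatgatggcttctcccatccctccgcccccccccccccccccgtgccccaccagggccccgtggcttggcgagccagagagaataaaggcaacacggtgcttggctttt
Mitf, chr6:97991533-97991782: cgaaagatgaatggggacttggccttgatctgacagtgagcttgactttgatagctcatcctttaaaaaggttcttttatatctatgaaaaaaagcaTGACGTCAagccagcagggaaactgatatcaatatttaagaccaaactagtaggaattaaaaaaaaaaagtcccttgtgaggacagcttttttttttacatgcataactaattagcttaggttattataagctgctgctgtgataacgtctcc
Mcam, chr9:44134618-44134647: ccccgccccccTGACGTCAgcccccgacag
Tyrp1 held 1 CATGTG at 46 bases before its start and 1 ACAAAG, on the minus strand, at 190. Dct held 2 of each, with CATGTG at 150 and ACAAAG at 141 close together. Of 32851 RefSeq starts, 12.3% held CATGTG and 16.5% held ACAAAG in the same window. The Mitf window held TGACGTCA at 153 bases before the start, and Mcam, shown by 30 bases, held it at 29. These distances are from the RefSeq starts. That of Mcam lies inside the gene coordinates given below, which begin at 44134469, and so do the 30 bases shown. The windows of the other Mitf starts held none. Of all starts, 1.55% held TGACGTCA, a comparison without weight because that motif was added with these sequences in view. Searches for CACGTG, a second form of E-box, and for GACCACCCA, the site of GLI factors, gave no match in the windows of the 5 members, against 6.02% and 0.225% of all starts. A match is a description of letters and not a site of binding.

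Mcam had the highest mean of the members, carried by Gli2CA 1, while S100b was higher in Gli2CA 2 and Sox10 in Gli2CA 3. The Mcam gene lies at chr9:44134469-44142727 (plus strand). It stood at 72.3, 15.3 and 8.01 FPKM in Gli2CA 1, 2 and 3, from 3003, 579 and 291 reads. In NTC 1 and NTC 2 it had 1 read each, or 0.0373 and 0.0252 FPKM, and in NTC 3 it was listed at 0. The groups did not overlap, and the Gli2CA libraries differed from each other as well, with Gli2CA 1 far above Gli2CA 3. Summed over libraries and per fragment, the ratio of Gli2CA to NTC reads was 1666, with an exact 95% interval of 461 to 13765 for counting error only. Gli2CA 1 gave most of these reads, and without it the ratio was 584 (161 to 4830). The log2 difference was 4.43 ± 0.97 (SE, limma adjusted p = 0.195). In the whole table, groups without overlap were found in 1332 genes with higher Gli2CA values, 10.9% of those tested, and in 710 with lower ones, 5.79%. Sox10 and Mcam are among the 1332.

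Vessel cells also make Mcam, and their other markers were mixed. The part of vessel cells in the level of Mcam was not tested. Of 8 endothelial and mural genes, the summed level was 17.0, 26.4 and 18.8 FPKM in Gli2CA and 19.9, 19.6 and 0.0972 in NTC. Tek, an endothelial receptor, was listed at 0 in all 6 libraries. Pdgfrb and Rgs5, which mark pericytes, were listed at 0 in all Gli2CA libraries. Pdgfrb was read in NTC 1 alone, at 0.806 FPKM, and Rgs5 in NTC 2 alone, by 1 read. Cdh5, the endothelial cadherin, had at most 0.325 FPKM in Gli2CA and was listed at 0 in NTC. Pecam1, which myeloid cells also make, had a mean of 11.5 ± 6.01 FPKM in Gli2CA libraries and 10.1 ± 9.54 in NTC libraries, and Kdr, a receptor for VEGF, had 4.83 ± 2.98 and 2.82 ± 4.85. Acta2, the smooth muscle actin, was at 3.60, 0.0423 and 8.94 FPKM in Gli2CA and at 0 in NTC. None of the 3 tested genes of that list passed (limma adjusted p of 0.495 to 0.798).

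S100b followed the pattern of Mitf. The gene lies at chr10:76253853-76261159 (plus strand) and overlaps Dip2a on the opposite strand. It stood at 4.79, 17.1 and 0.952 FPKM in Gli2CA 1, 2 and 3 and at 0, 1.89 and 0 FPKM in NTC 1, 2 and 3. Gli2CA 2 was highest and NTC 2 lay above Gli2CA 3, so the groups overlapped. The log2 difference was 2.05 ± 1.01 (SE, limma adjusted p = 0.502), 1.03 when NTC 1 and NTC 3 were left out and 1.24 without Gli2CA 2. Dip2a was at 1.09, 3.19 and 1.45 FPKM in Gli2CA and at 0, 5.48 and 2.35 in NTC, below S100b in Gli2CA 1 and 2 and above it in Gli2CA 3 and NTC 2.

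Erbb3 was carried by Gli2CA 1. The gene lies at chr10:128567523-128589652 (minus strand), 114542 bases from Pmel, and 3 of the 9 members are on chromosome 10. It stood at 7.85, 0.0125 and 0.306 FPKM in Gli2CA 1, 2 and 3 and at 0.0442, 0.0477 and 0.0144 FPKM in NTC. In reads, that was 1376, 2 and 47 against 5, 8 and 2. Gli2CA 2 was the lowest of all 6 libraries, so the groups overlapped, and the log2 difference of 1.13 ± 0.88 (SE, limma adjusted p = 0.68) became 0.15 without Gli2CA 1 and 1.72 without Gli2CA 2. Its partner receptor Erbb2, outside the genes named by rule, had 0.943, 0.0230 and 0 FPKM in Gli2CA 1, 2 and 3. The neuregulin gene Nrg1, also outside that rule, had 3.10, 7.45 and 5.18 FPKM in Gli2CA 1, 2 and 3, and 4.40 FPKM in NTC 2 with 0 in the other NTC libraries.

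The median log2 difference of all 12266 genes was 0.25, and it was -0.03 after quantile normalization. Relative to the median of 0.25, the differences were 4.18 for Mcam, 3.87 for Sox10, 1.80 for S100b, 0.99 for Mitf and 0.88 for Erbb3. In the ranking of all genes by log2 difference, these were at percentiles 99.7, 99.5, 91.9, 78.7 and 76.3. The 5 members reached the minimum mean of 1 FPKM for the test chiefly through their Gli2CA values, so their shared sign carries no weight. An exact two-sided permutation test of a single gene cannot go below 0.1 with 3 libraries against 3. This exact permutation test gave p = 0.1 for Sox10 and Mcam, 0.2 for Mitf and S100b, 0.4 for Erbb3 and 1 for Pmel.

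**Figure D3:**
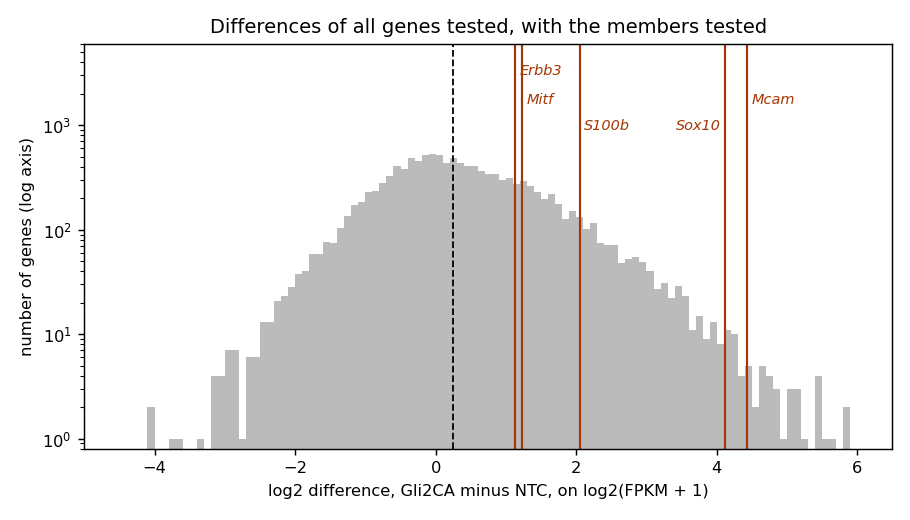
The histogram shows the log2 difference of Gli2CA minus NTC for 12266 genes on a log count axis, with the 5 members tested as vertical lines and the median of all genes, 0.25, as a dashed line. Sox10 at 4.12 and Mcam at 4.43 lie in the upper tail, and Mitf and Erbb3 lie within the bulk of genes.

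The members did not keep a fixed proportion to Sox10 across the Gli2CA libraries. Levels were compared as FPKM, which are per length. Mcam relative to Sox10 was 3.65 in Gli2CA 1 (exact 95% interval 3.40 to 3.92), 1.27 in Gli2CA 2 (1.13 to 1.42) and 0.435 in Gli2CA 3 (0.38 to 0.498). The intervals, which cover counting error only, did not overlap, and the highest ratio was 8.39 times the lowest. Mitf relative to Sox10 was 0.0722, 0.491 and 0.0444, and S100b was 0.242, 1.42 and 0.0517, with Gli2CA 2 highest for both. Erbb3 relative to Sox10 was 0.397 in Gli2CA 1, 0.00104 in Gli2CA 2 and 0.0167 in Gli2CA 3. Gli2CA 1 was therefore high in Mcam, Erbb3 and Pmel, and Gli2CA 2 in Mitf and S100b, while Gli2CA 3 had close to the Sox10 level of Gli2CA 1 with the lowest Mcam, Mitf and S100b of its group.

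**Figure D4:**
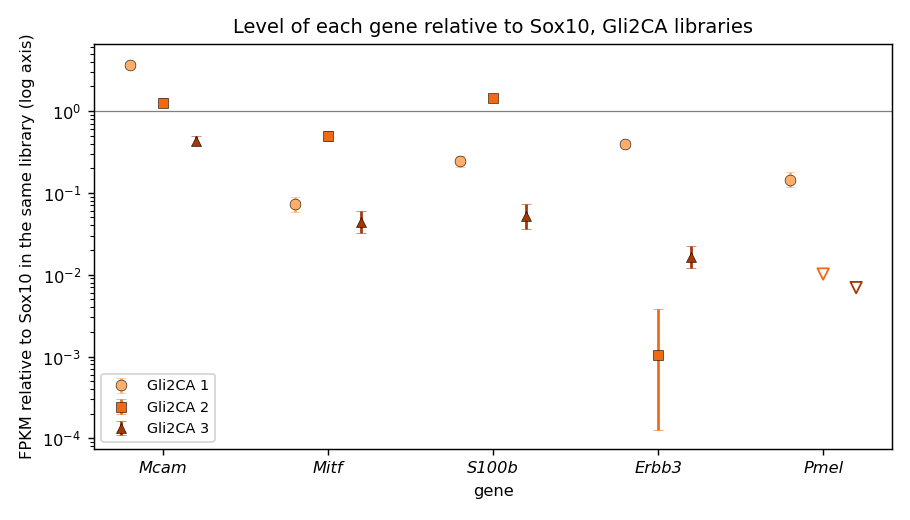
Points show each gene's FPKM relative to Sox10 in the same Gli2CA library on a log axis, with exact 95% intervals for counting error, and open triangles mark the upper limit where a gene had 0 reads. Mcam runs from 3.65 in Gli2CA 1 to 0.435 in Gli2CA 3, and Erbb3 from 0.397 in Gli2CA 1 to 0.00104 in Gli2CA 2.

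Apart from Ets1, the transcription factors of the neural crest listed here were read in the Gli2CA libraries and hardly in NTC, or in neither. How many of all genes of like level share this pattern was not measured. The counts below therefore carry no weight as a trait of the list. The list had 13 genes. Ets1, which lymphoid cells also make, had a mean of 36.4 ± 21.2 FPKM in the Gli2CA libraries and 55.8 ± 8.51 in the NTC libraries (SD, n = 3 each). The other 12 genes had 1387, 869 and 188 reads in all in Gli2CA 1, 2 and 3, with 7 genes read in each. In NTC 1, 2 and 3 the same 12 had 1, 0 and 0 reads. Of these 12, Tfap2b and Sox5 alone had means in the range of 1 to 20 FPKM over which detection was compared. Detection in NTC 2 of genes as low as the others was not measured, which limits what its 0 shows. Setting Ets1 aside was a choice made after seeing the values. Tfap2b, an AP-2 factor, stood at 7.20, 2.27 and 0.0326 FPKM in Gli2CA 1, 2 and 3, and Sox5 at 4.86, 3.85 and 0, both at 0 in NTC. Pax3, an activator of Mitf named here for its values, had 1.60, 2.71 and 0.127 FPKM in Gli2CA and 1 read in NTC 1. Sox8, Zic1 and Msx1 were listed at 0 in all 6 libraries. Of the 13, 3 reached the level for the test, 2 with the higher and 1 with the lower mean in Gli2CA. None passed (limma adjusted p of 0.508 to 0.624), and their median log2 difference of 1.60 was the value of Tfap2b. Tfap2b and Sox5, both at 0 in NTC, reached that level through their Gli2CA values alone, so their sign carries no weight.

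**Figure D5:**
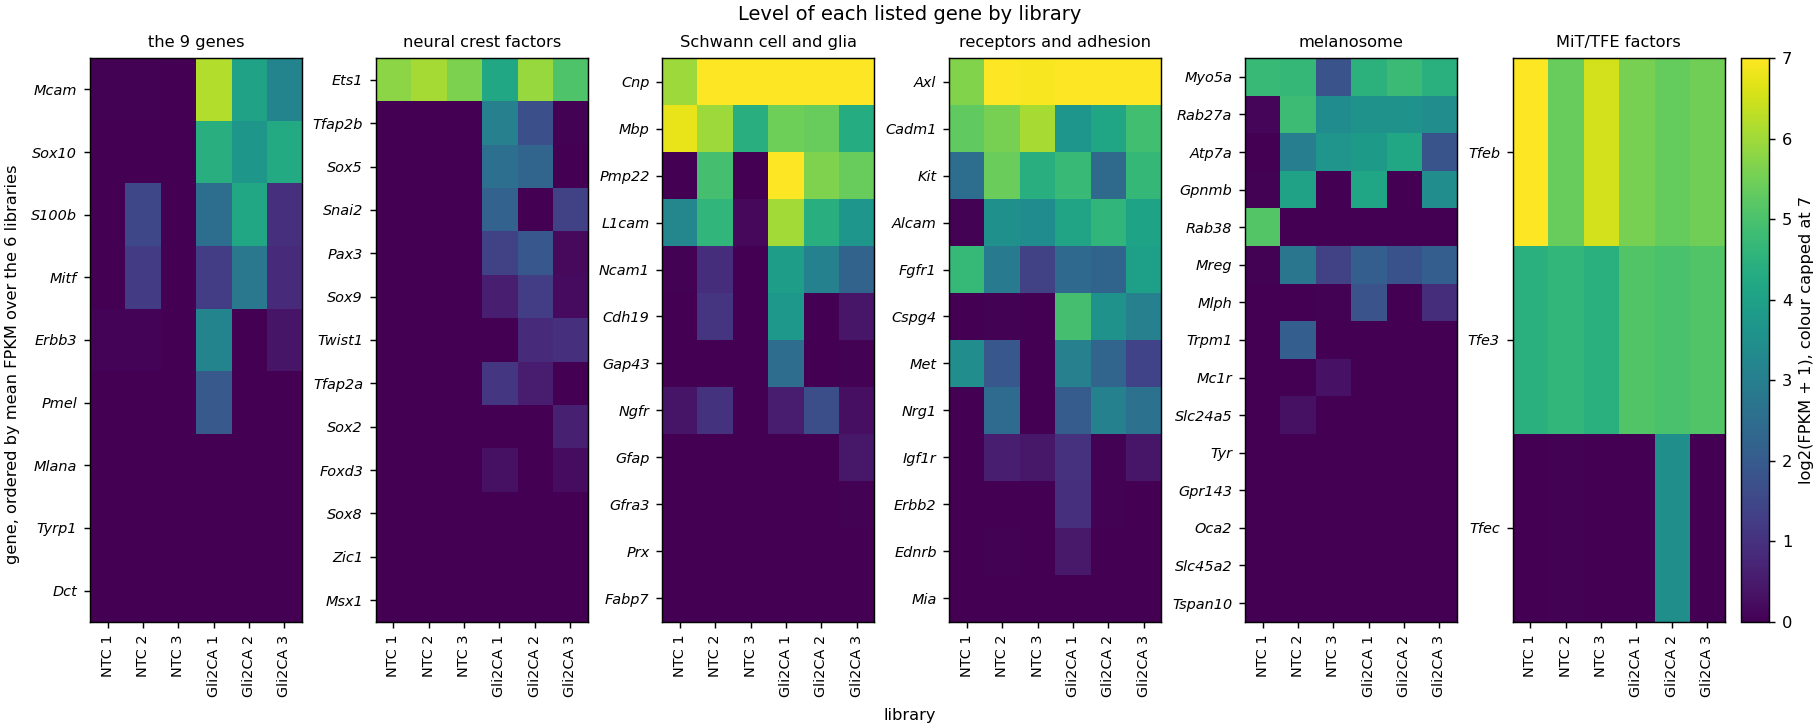
Colour shows log2(FPKM + 1), capped at 7, for every gene of 6 lists in each library, ordered by mean FPKM within the list. Most neural crest factors have signal in Gli2CA libraries alone, whereas the melanosome and MiT/TFE lists have signal in both groups.

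Genes of Schwann cells and glia were mixed. Of 12 genes, 6 were tested, 5 with the higher and 1 with the lower mean in Gli2CA, and none passed (median log2 difference 1.54, limma adjusted p of 0.272 to 0.809). Pmp22, a myelin protein gene, was at 140.6, 49.4 and 40.7 FPKM in Gli2CA 1, 2 and 3 and at 0, 29.6 and 0 in NTC, without overlap. Cnp, which many cell types make, had a mean of 162 ± 15.3 FPKM in Gli2CA libraries and 146 ± 72.9 in NTC libraries, and Mbp had 34.2 ± 13.0 and 63.6 ± 44.5. The Schwann cell gene Prx and the glial gene Fabp7 were listed at 0 in all libraries. Ncam1, a neural adhesion molecule named here for its values, had 14.2, 7.46 and 3.69 FPKM in Gli2CA and 0.0341, 0.896 and 0.0138 in NTC.

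Among 12 receptors and adhesion molecules of melanoma cells, 8 were tested, 5 with the higher and 3 with the lower mean in Gli2CA, and none passed (median log2 difference 0.96, limma adjusted p of 0.195 to 0.98). After quantile normalization Met changed sign, giving 4 and 4. Cspg4, the melanoma proteoglycan NG2, is named here for its values. It stood at 29.5, 11.1 and 7.23 FPKM in Gli2CA 1, 2 and 3 and at 0.00989, 0.0333 and 0.016 in NTC, without overlap (log2 difference 3.83 ± 0.83 SE, limma adjusted p = 0.195). Axl, a receptor tyrosine kinase of myeloid cells as well as melanoma, had 265 ± 68.9 against 103 ± 47.2 FPKM, and Cadm1, an adhesion molecule also known from cDC1 cells, had 19.0 ± 8.76 against 50.2 ± 14.8. Kit, the stem cell factor receptor, had 18.2 ± 12.0 against 22.2 ± 18.4, and Mia was listed at 0 in all libraries.

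The melanosome list was mixed. Of its 15 genes, 5 were listed at 0 in all libraries, namely Tyr, Gpr143, Oca2, Slc45a2 and Tspan10, the first of which encodes tyrosinase, the key enzyme of melanin synthesis. Trpm1 and Slc24a5 were read in NTC 2 alone, at 3.26 and 0.247 FPKM, and Mc1r in NTC 3 alone, at 0.273. Rab38 had 34.1 FPKM in NTC 1 and 0 in the other 5 libraries. Mlph went the other way, at 2.49, 0 and 0.903 FPKM in Gli2CA 1, 2 and 3. It had 0, 1 and 1 reads in NTC 1, 2 and 3. Trpm1, Slc24a5, Mc1r, Rab38 and Mlph are named here for their values. The melanosome genes with the highest means serve vesicle transport or copper supply in many cells. Myo5a had a mean of 23.0 ± 2.91 FPKM in Gli2CA libraries and 17.4 ± 13.0 in NTC libraries, Rab27a at 10.5 ± 0.647 and 12.3 ± 13.7, and Atp7a at 10.9 ± 7.58 and 6.16 ± 5.79. Of 6 genes tested, 5 had the higher and 1 the lower mean in Gli2CA, which became 3 and 3 after quantile normalization, when Rab27a and Mreg changed sign. None passed (limma adjusted p of 0.68 to 0.831).

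Markers of other cells that a tumour digest could add were followed by library. Of 6 fibroblast genes, the summed level was 27.8, 3404 and 8.90 FPKM in NTC 1, 2 and 3 and 327, 76.5 and 60.0 in Gli2CA 1, 2 and 3. The collagen genes Col3a1, Col1a1 and Col1a2 were highest in NTC 2, at 1660, 732 and 748 FPKM, the control library with 0 reads of Sox10 and 1 read of Mcam. Pdgfra was read in NTC 1 alone, at 5.08 FPKM, and was listed at 0 in NTC 2, NTC 3 and all Gli2CA libraries. Of 6 keratinocyte genes, Krt5, Krt1 and Trp63 were listed at 0 throughout, and Dsp was read in Gli2CA 3 alone. Krt14 followed the pattern of Sox10, at 46.2, 4.04 and 21.5 FPKM in Gli2CA and 0 in NTC, and Krt10 did not, at 1.76 ± 1.35 and 1.96 ± 2.33. The summed keratinocyte level was 46.6, 5.80 and 24.6 FPKM in Gli2CA and 4.54, 1.35 and 0 in NTC. The part of such cells, of tumour cells and of the differing detection in the levels of Sox10 and Mcam was not tested. In sorted bulk RNA, more cells of a type and more RNA per cell cannot be told apart.

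The Hedgehog genes, which the mutant would act on in tumour cells, were mixed. Ptch1, a receptor gene and textbook target of GLI factors, is named here for its values. It had 1.25, 1.59 and 0.507 FPKM in Gli2CA 1, 2 and 3, from 141, 163 and 50 reads, and 1 read in NTC 3 with 0 in NTC 1 and NTC 2. Its groups did not overlap, and its mean was too low for the test. Gli1, another textbook target, and Gli2 were listed at 0 in all 6 libraries. Whether reads of the mutant would be counted as mouse Gli2 is not given in the sources used here. Gli3 had 0.962, 2.76 and 0 FPKM in Gli2CA 1, 2 and 3 and 0 in NTC. Smo had 2.56 ± 4.25 against 1.12 ± 1.95 FPKM, and Sufu, an inhibitor of the pathway, had 8.07 ± 4.57 against 8.36 ± 14.1. These 2 were the tested genes of the 7 in that list, both with the higher mean of log2 values in Gli2CA, and neither passed (limma adjusted p of 0.725 for Sufu and 0.894 for Smo).

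Genes whose pattern was most like that of a tested member were found by Pearson r on log2(FPKM + 1) over the 6 libraries, as a description. The libraries fall into groups for several members, so high values are readily reached. For Sox10 they were Dkk2, an extracellular modulator of Wnt signalling, Rnd1, a small GTPase, and Nefl, the light neurofilament chain, all at r = 0.999. Nefl stood at 18.0, 8.92 and 13.8 FPKM in Gli2CA and had at most 0.0157 in NTC. For Mcam they were Stac2, Cxcl1 and Lamb1, of which Lamb1, a laminin chain, had 34.9, 7.92 and 6.00 FPKM in Gli2CA. For Mitf they were Rasa2, S100b and Nbeal1, and for S100b they were Nbeal1, Abi2 and Mitf, with r = 0.978 between the pair of members. For Erbb3 they were Fbxo44, Akr1c18 and Etv4, each highest in Gli2CA 1.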

How the data were processed

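RNA of CD11c-sorted tumour cells was measured in 6 libraries, 3 per group. The authors deposited 1 table of FPKM values, the unit in its file name. Its aligner, counter, genome build and strand setting are not stated in what was used here. Columns were matched by the sample descriptions, and libraries are named by the number in the titles, so NTC 2 and NTC 3 are the ones with description numbers 3 and 4. Symbols matched 54409 of 54532 IDs. Coordinates and mean transcript lengths came from GENCODE M21 (GRCm38). FPKM times length gave whole reads within 0.05 for 96.8 to 98.2% of values under 30 reads, depending on the library.

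Groups were compared with limma 3.58.1 (R 4.3.3). Values were taken as log2(FPKM + 1), variances were moderated with a trend, and p-values were adjusted by Benjamini-Hochberg at a threshold of 0.05. A mean of 1 FPKM or more was required, which left 12266 genes. It was tested on simulated data. Summaries used Python 3.11.15 with pandas 2.3.3 and numpy 2.4.6, and figures used matplotlib 3.10.9. Some genes are not reported here and were left out of the lists. The members and the 10 lists of other genes were chosen with earlier results of these data known. Named genes were all members, the 3 with the highest mean in each list, genes at 0 in all libraries, and the 3 protein-coding genes most like each tested member. Other genes named lie outside this rule. Alternatives were another pseudocount, other filters, scalings and variance models, replicate blocks, voom on recovered reads and leaving out libraries.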

Additional observations from a re-analysis of the deposited data

How the results depend on the processing

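No member passed under any of the 17 other settings, and none of the 5 tested members changed sign. Over those settings, voom aside, the log2 difference ran from 3.89 to 7.37 for Sox10, 3.57 to 7.44 for Mcam, 0.98 to 4.04 for S100b, 0.42 to 3.07 for Mitf and 0.10 to 2.41 for Erbb3, the upper ends with a pseudocount of 0.1. Voom on the recovered reads gave 10.44 for Sox10 (adjusted p = 0.0536) and 9.46 for Mcam (adjusted p = 0.102), on a scale with a smaller offset. The lowest adjusted p of Sox10 was 0.0533, without the variance trend. Over all genes, 0 passed in every setting except quantile normalization, where 21 did, no member among them; the cause was not tested. Leaving out 1 library in turn gave 0 throughout, while the number at an unadjusted p under 0.05 ran from 817 without Gli2CA 1 to 2450 without NTC 2. Mitf and S100b became 0.66 and 1.24 without Gli2CA 2, and Erbb3 to 0.15 without Gli2CA 1. With a minimum mean of 5 FPKM, Mitf, S100b and Erbb3 were not tested. Libraries with the same title number did not deviate together (r of -0.04 to -0.002), so the numbers were not taken as pairs. With the replicate block by title number 0 genes passed and 1088 had an unadjusted p under 0.05, against 1304 without it. With the replicate block by description number these were 0 and 393. In that setting NTC 3 and Gli2CA 2 shared their number with no other library, so they added nothing to the difference. The lower end for S100b, 0.98, came from that setting. Low detection in NTC 1 and NTC 3 limits what a value of 0 there shows.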
